A study of Mus musculus with 6 samples.

Results

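The WASP and WAVE proteins, their partners and the cortactin pair switch on the Arp2/3 complex, which starts branched actin filaments. The 10 genes were taken by symbol from the deposited gene tables of mouse bone marrow, in all 6 of which each has 1 row: Was, Wasl, Wasf2, Wipf1, Nckap1l, Hcls1, Cttn, Abi1, Abi3 and Cyfip1. These are 10 of 23746 gene loci. They are named by symbol, with no threshold on a measured value, but were chosen with earlier results of these data known. Counts of members below therefore describe a chosen set. The questions are how blood-restricted and general paralogues share the load in progenitors and in myeloid cells, and whether loss of Diap1 moves them. Diap1 is the symbol used in the tables for the formin mDia1, which builds unbranched actin filaments.

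Marrow came from C57BL/6 mice aged 12 weeks that were Diap1 WT, Diap1 +/- (Het) or Diap1 -/- (KO). For each genotype the marrow of 4 mice was pooled; Gr1 and Mac1 double positive cells (granulocytes and monocytes) were drawn off with magnetic beads, and the rest was negatively selected for uncommitted progenitors, called Lin- here. The 3 pools and 2 fractions make 6 groups with 1 library each, so the WT, Het and KO Lin- and the WT, Het and KO Gr1+Mac1+ libraries have no replicate of their genotype. The labels do not say which part of Diap1 was deleted or whether the loss was limited to some cells.

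WASP (Was) and N-WASP (Wasl) are held closed until Cdc42 and membrane lipid open them, and then hand actin monomers to Arp2/3. WASP is found in blood cells, N-WASP in most tissues, and WIP (Wipf1) binds WASP and protects it from degradation. The WAVE complex joins a WAVE protein such as WAVE2 (Wasf2) with an Abi, a Cyfip, a Nap1-type subunit and the small subunit Brick1, and answers to Rac at the leading edge of moving cells. Hem1 (Nckap1l) is the blood form of Nap1 (Nckap1), as HS1 (Hcls1) is the blood form of cortactin (Cttn), which stabilises branch points. Loss of WASP, WIP or Hem1 causes immune deficiency in humans.

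The promoters of Was, Hcls1 and Wasl are shown because they set the blood-restricted genes beside the general paralogue of the first. Each is the 250 bases before the RefSeq start, 5′ to 3′ along the gene's strand, on GRCm38.p6 (mm10); capitals mark GGAAGT, a core bound by ETS-family factors such as PU.1, or its reverse complement ACTTCC.
Was, chrX:8090492-8090741, minus strand: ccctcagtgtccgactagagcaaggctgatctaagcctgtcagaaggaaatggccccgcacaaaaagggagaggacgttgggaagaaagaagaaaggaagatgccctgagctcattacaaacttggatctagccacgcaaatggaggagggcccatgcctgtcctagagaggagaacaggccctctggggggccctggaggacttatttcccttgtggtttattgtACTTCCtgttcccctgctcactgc
Hcls1, chr16:36934733-36934982, plus strand: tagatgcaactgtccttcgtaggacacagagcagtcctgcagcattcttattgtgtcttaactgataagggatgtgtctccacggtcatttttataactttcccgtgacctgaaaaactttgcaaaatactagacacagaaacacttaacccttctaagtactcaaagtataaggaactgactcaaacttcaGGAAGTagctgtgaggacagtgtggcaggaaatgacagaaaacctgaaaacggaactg
Wasl, chr6:24664996-24665245, minus strand: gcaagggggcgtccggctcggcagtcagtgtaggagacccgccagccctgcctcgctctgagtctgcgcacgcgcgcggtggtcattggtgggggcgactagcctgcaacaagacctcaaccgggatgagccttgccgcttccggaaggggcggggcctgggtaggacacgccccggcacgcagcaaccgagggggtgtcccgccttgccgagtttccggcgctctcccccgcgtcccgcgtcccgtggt
GGAAGT was searched on both strands; it cannot overlap itself. It stood in 19.7% of 32851 RefSeq windows of this length. Was and Hcls1 held 1 match each, starting 24 and 58 bases before the start, and 4 CpG dinucleotides each, where the median window held 6. Wasl held no match and 28 CpG, above the upper quartile of 16. Among the other members, Wasf2 held 1 match at 246 bases and 23 CpG, and 1 or more windows of Wipf1 and Abi1 held the motif. Of the paralogues outside the members with an entry, Wipf2 held 1 match at 104 bases and 21 CpG, and Cyfip2 and Wasf1 held none. Entries were found for 6 of the 10 members. A match describes these letters only, and a window without a match may still hold other sequences that ETS-family factors bind.

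The libraries held an implied 8630000 to 11600000 fragments, read from the width of the deposited intervals. Diap1 had an FPKM of 36.0, 24.2 and 6.07 in WT, Het and KO Lin- and of 57.1, 34.1 and 4.07 in Gr1+Mac1+ cells, in the order of its copies. The Lin- fraction had the higher Kit, a progenitor receptor, at 66.4 to 84.7 against 14.9 to 15.7, and the Gr1+Mac1+ fraction the higher Itgam, which encodes Mac1, at 293 to 311. The Het Lin- library stood apart: its 11 matched neutrophil markers summed to an FPKM of 8021, against 51.2 in WT and 68.5 in KO Lin- and 136169 to 164330 in Gr1+Mac1+ libraries, with no marker of the list at 0. Its Itgam was 16.9 against 0.640 in WT; the KO Lin- value has the deposited status FAIL. Pools also differed in sex-linked genes: Xist was at 54.2, 34.9 and 38.7 and Eif2s3y at 9.05, 17.6 and 18.0 in WT, Het and KO Lin-.

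Between the fractions most of the set moved the same way. Of the 10 members, 8 were higher in Gr1+Mac1+ cells, where 30.3% of the 11572 loci tested were, and 2, Cttn and Wasl, were higher in Lin- cells, as were 51.5% of loci. HS1, WIP and Abi3, with Hem1, had the largest rises, and cortactin was 13.8-fold lower than in Lin- cells. No member's libraries overlapped between fractions, and loci with all Gr1+Mac1+ libraries on top made up 31.7% and those with all Lin- libraries on top 54% of those tested. FPKM is a fragment number per transcript length and per library total, and the test was limma on log2(FPKM + 1) with the pool as a block, Benjamini-Hochberg adjusted. The 3 pools carry different genotypes, and the block takes out what both fractions of a pool share. The spread behind the p-values is therefore that of the fraction difference among pools. It holds any effect of genotype on that difference as well as noise. The Gr1+Mac1+ libraries were not free of lymphoid transcripts: 10 of 10 B lineage markers were called higher there, with a median log2 difference of 3.30. So were 8 of 10 T and NK markers, with a median of 1.23. The part of lymphoid cells in the members' differences was not tested. In such bulk RNA, fewer cells of a type and less RNA per cell cannot be told apart.

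**Figure D1:**
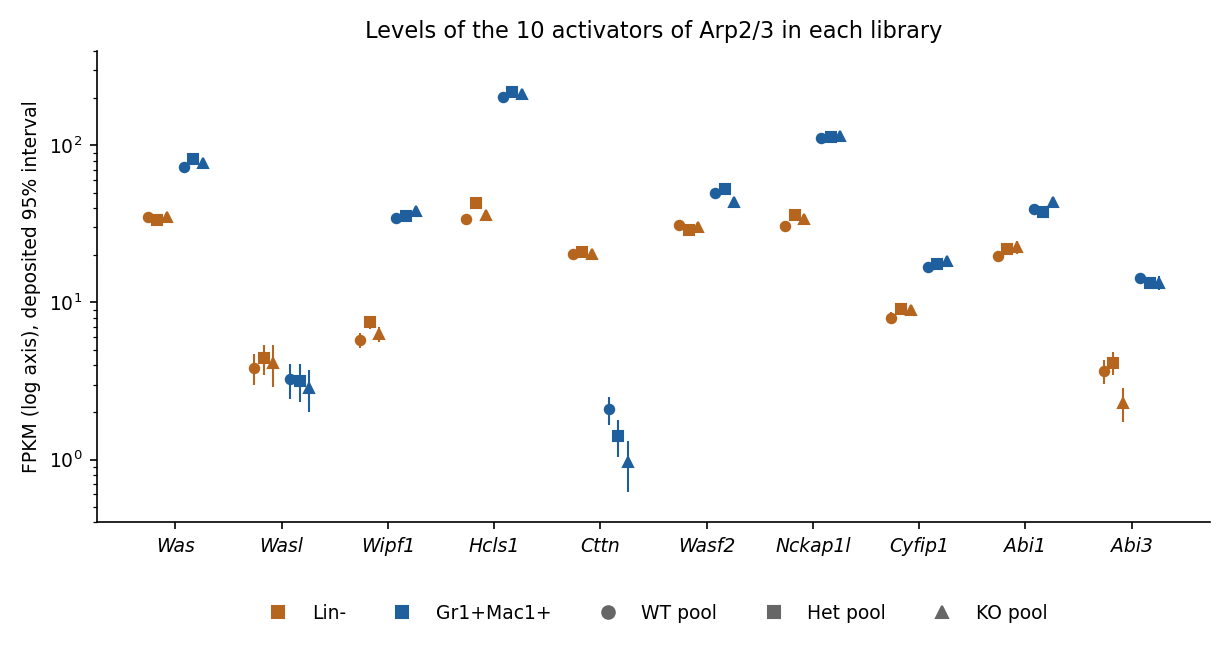
FPKM of the 10 members (log axis) in each library, with colours for the fraction and points for the WT, Het and KO pools. Hcls1 has the highest mean in both fractions, though Was is above it in WT Lin-. Cttn drops from about the level of Abi1 in Lin- to the lowest in Gr1+Mac1+ cells.

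The WASP proteins came first. Was (chromosome X, 8081466 to 8090491) had an FPKM of 35.0, 33.7 and 34.9 in WT, Het and KO Lin- and of 73.2, 81.5 and 77.6 in the Gr1+Mac1+ libraries. All Gr1+Mac1+ values were above all Lin- values, and the log2 difference was 1.14 (SE 0.07, limma adjusted p = 0.000200). Wasl (chromosome 6, 24613810 to 24664995) was at 3.83, 4.41 and 4.15 in Lin- against 3.24, 3.17 and 2.85 in Gr1+Mac1+ cells. The Lin- values were the higher, by a log2 difference of -0.33 (SE 0.09, limma adjusted p = 0.0267), Gr1+Mac1+ minus Lin-. This call rested on the scaling: after the libraries were rescaled by the median ratio, the difference was -0.02 with a limma adjusted p of 0.819. Wasl was so low that 44.3 to 82.3 implied fragments lay behind each value.

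WIP was among the members with the widest gap. Wipf1 (chromosome 2, 73429617 to 73529410) was at an FPKM of 5.78, 7.47 and 6.31 in WT, Het and KO Lin- against 34.7, 35.4 and 38.0 in Gr1+Mac1+ cells. The highest Lin- value, in Het, was far under the lowest Gr1+Mac1+ value, and the log2 difference was 2.31 (SE 0.09, limma adjusted p = 0.000124). Its general relative Wipf2, a WASP-binding protein as well, was at 6.83, 6.94 and 7.06 against 6.66, 7.51 and 7.51. Those ranges overlapped, with a log2 difference of 0.05 (limma adjusted p = 0.566) that became 0.39 and passed after rescaling.

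In the cortactin pair, Hcls1 was above Cttn in all 6 libraries, and the pair differed between fractions in opposite directions. Hcls1 (chromosome 16, 36934983 to 36963214) had an FPKM of 34.2, 43.2 and 35.9 in WT, Het and KO Lin- against 202, 218 and 211 in Gr1+Mac1+ cells, which was 2.45 higher on the log2 scale (SE 0.07, limma adjusted p = 0.000124). Cttn (chromosome 7, 144435724 to 144470935) was at 20.4, 20.9 and 20.4 in the Lin- libraries, against 2.08, 1.41 and 0.969 in Gr1+Mac1+ cells. The Lin- values lay close together at 20.5 ± 0.311 (SD, n = 3 pools), while the Gr1+Mac1+ values, from 96.7, 55.1 and 31.1 implied fragments, spread more at 1.49 ± 0.561. The log2 difference was -3.14 (SE 0.15, limma adjusted p = 0.000135), on a scale whose added 1 understates the change of low genes.

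All 5 WAVE complex members were higher in Gr1+Mac1+ cells, by unequal amounts. Nckap1l (chromosome 15, 103453825 to 103498800) was at an FPKM of 30.5, 36.1 and 33.9 in WT, Het and KO Lin- against 111, 113 and 115 in Gr1+Mac1+ cells. The fractions were far apart, with a log2 difference of 1.73 (SE 0.07, limma adjusted p = 0.000124). Its general paralogue Nckap1 went the other way, from 14.9, 15.3 and 13.4 to 1.30, 0.738 and 0.913, a log2 difference of -2.98. Wasf2 (chromosome 4, 133130633 to 133198330), the WAVE protein itself, was at 31.0, 29.1 and 30.4 against 50.1, 52.4 and 43.8. It had the smallest rise among the 8, 0.67 (SE 0.08, limma adjusted p = 0.00162). The other WAVE genes were near absent: Wasf1 was at 0.0313 in WT Lin- and listed at 0 in the other 5 libraries, and Wasf3 was listed at 0 in all 6.

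The adaptor subunits followed. Abi1 (chromosome 2, 22939989 to 23040240) was at an FPKM of 19.9, 21.9 and 22.4 in WT, Het and KO Lin- and 39.1, 37.8 and 43.7 in Gr1+Mac1+ cells. Abi3 (chromosome 11, 95830072 to 95842476), which can take the place of Abi1 in the complex, was at 3.65, 4.12 and 2.29 against 14.2, 13.3 and 13.3. The log2 difference of Abi3, 1.77 (SE 0.15, limma adjusted p = 0.000447), stood beside 0.88 for Abi1 (SE 0.07, adjusted p = 0.000400). Cyfip1 (chromosome 7, 55842071 to 55932633), the subunit through which Rac acts, was at 8.02, 9.14 and 8.92 against 16.9, 17.5 and 18.4. All its Gr1+Mac1+ values were higher, with a log2 difference of 0.94 (SE 0.07, limma adjusted p = 0.000312). Its relative Cyfip2 was the more abundant in both fractions, at 28.6, 29.8 and 28.7 against 87.6, 102 and 88.6.

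**Figure D2:**
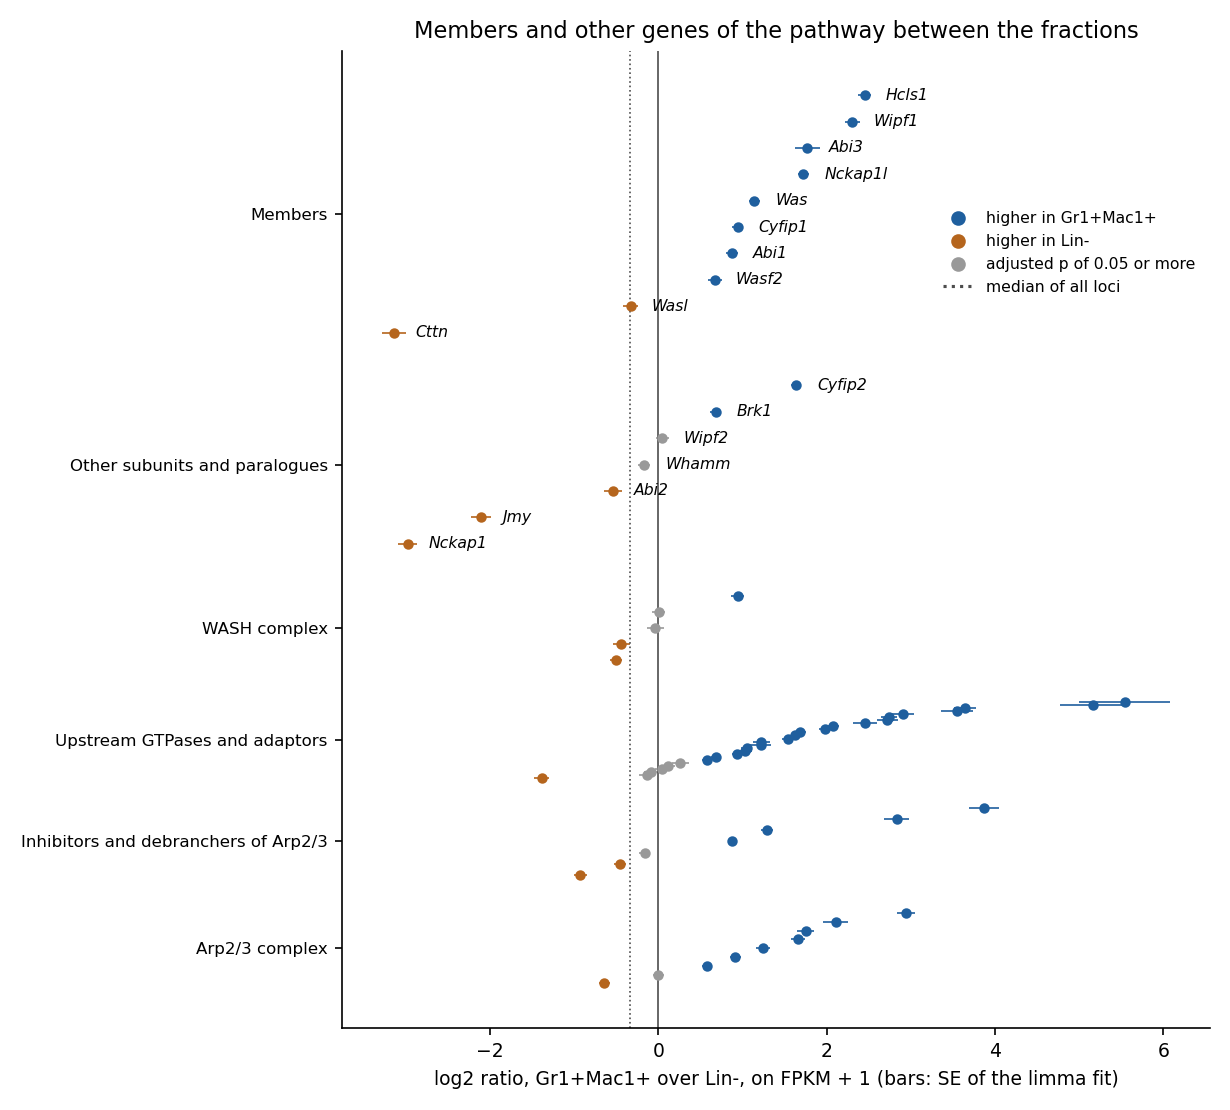
Log2 difference between fractions, Gr1+Mac1+ minus Lin-, on the log2(FPKM + 1) scale for the members and the other genes of the pathway, 1 row per gene. Among the members, Hcls1 is farthest to the right at 2.45 and Cttn farthest to the left at -3.14.

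The FPKM scale is itself moved by a few abundant genes. The median log2 difference was -0.33 over all loci tested and 1.04 over the members. After rescaling by the median ratio these were 0.01 and 1.41; 39.7% of 11574 loci were then higher in Gr1+Mac1+ and 38.2% in Lin- cells, and the members counted 8 and 1. Without the Het pool, and so without the Lin- library that held neutrophil markers, the members also counted 8 and 1, Wasl being the call that was lost.

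Within a library, the share of a paralogue pair's summed FPKM does not depend on the scaling. Here all 6 pairs with both genes measured gave a larger share to the first gene named below in Gr1+Mac1+ than in Lin- cells. That common direction depends on which gene is put first, and the lists were chosen with earlier results of these data known. In the Cyfip pair the gene put first, Cyfip2, is not a member. Hcls1 made up 64.6 ± 2.46% of Hcls1 and Cttn in Lin- and 99.3 ± 0.286% in Gr1+Mac1+ cells (SD, n = 3 pools). For Nckap1l in the Nap1 pair the shares were 69.7 ± 2.28% and 99.1 ± 0.263%. The myeloid fraction thus held hardly any transcript of the general partner, while in the Lin- fraction cortactin and Nap1 held the rest of those shares. The Lin- libraries also held more stromal and endothelial markers (summed FPKM 405 to 773 against 31.2 to 49.0), megakaryocyte markers (244 to 485 against 40.6 to 56.0) and erythroid markers (758 to 790 against 296 to 490), beside a progenitor sum of 250 to 298, with no marker of these lists at 0. Single markers called higher in Lin- cells were 5 of 6, 8 of 8 and 6 of 9 tested, where 51.5% of loci were. Pecam1 (log2 difference 0.84) of the first list and the erythroid Slc4a1 (1.94) and Alas2 (2.12) were called higher in Gr1+Mac1+ cells. The part of stromal, endothelial, megakaryocyte and erythroid cells in the Cttn and Nckap1 levels was not tested. The sums did not stay level: Hcls1 with Cttn summed to a mean of 58.3 in Lin- against 212 in Gr1+Mac1+ cells, and the Nap1 pair to 48.1 against 114.

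The remaining pairs shifted by unequal amounts. Wipf1 went from 48.3 ± 3.16% to 83.3 ± 0.713% of Wipf1 and Wipf2 (SD, n = 3 pools), and Was from 89.3 ± 0.865% to 96.2 ± 0.358% of the WASP pair. Abi3 took 13.5 ± 3.69% of the sum with Abi1 in Lin- and 25.4 ± 1.73% in Gr1+Mac1+ cells, so Abi1 remained the main Abi in both. Cyfip2 went from 77.0 ± 0.984% to 84.0 ± 1.28% of the Cyfip pair. As differences of log2 ratios between fractions, the pairs stood at 5.59 ± 0.33 for Hcls1 to Cttn, 4.70 ± 0.13 for Nckap1l to Nckap1, 2.26 ± 0.22 for Wipf1 to Wipf2, 1.47 ± 0.21 for Was to Wasl, 0.89 ± 0.26 for Abi3 to Abi1 and 0.69 ± 0.15 for Cyfip2 to Cyfip1 (SD over pools). Each had 1 direction in 3 of 3 pools and an exact two-sided sign-flip permutation p of 0.25, the smallest 3 pools allow; adjusted over the 7 pairs, counting Wasf2 with the near absent Wasf1, it was 0.25.

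**Figure D3:**
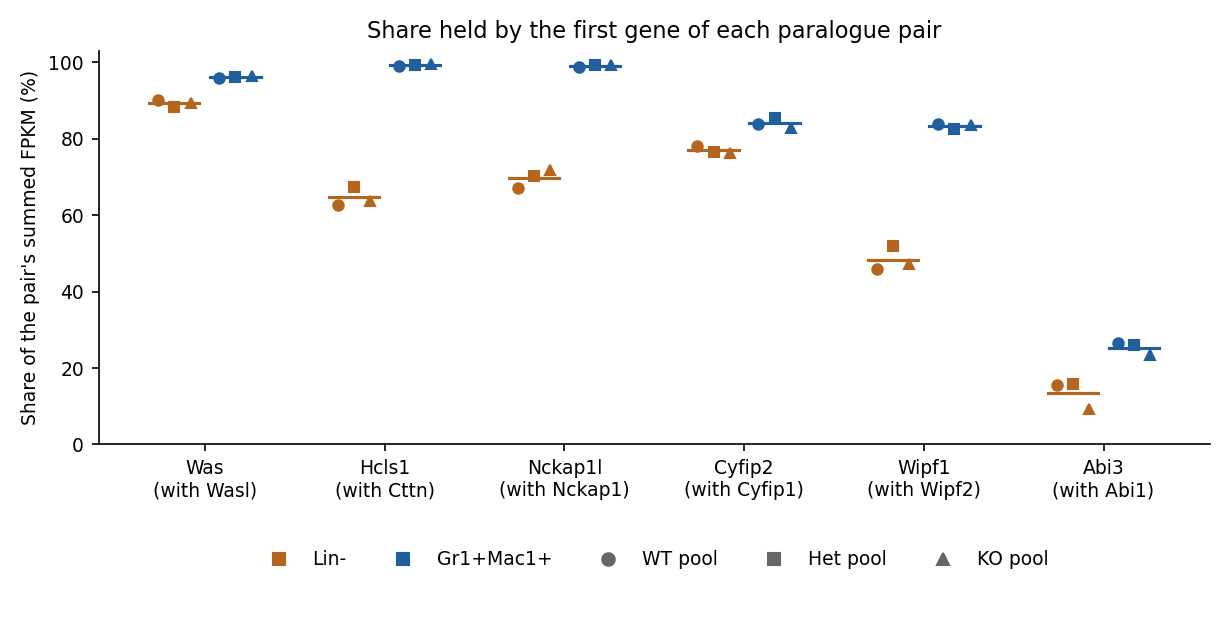
Share of a pair's summed FPKM held by the first gene, in percent, with a point for each pool and fraction. The Hcls1 and Nckap1l pairs go from means of 64.6% and 69.7% in Lin- to above 99% in Gr1+Mac1+ cells.

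Ordered by FPKM in Lin- cells, Hcls1, Was, Nckap1l and Wasf2 led at means of 37.8 to 30.2, and neighbours in this group overlapped over the pools. Abi1 and Cttn, overlapping each other, came next, then Cyfip1 at 8.69 ± 0.591 and Wipf1 at 6.52 ± 0.866 (SD, n = 3 pools), with Wasl and Abi3 lowest and overlapping. In Gr1+Mac1+ cells the order was Hcls1 at 210.2 ± 7.69, Nckap1l at 113 ± 1.67, Was at 77.4 ± 4.19 and Wasf2 at 48.8 ± 4.45. Abi1 and Wipf1 followed with overlapping values, then Cyfip1 at 17.6 ± 0.766, Abi3 at 13.6 ± 0.511, Wasl at 3.09 ± 0.208 and Cttn. Of the 11330 loci with a mean FPKM of at least 1 in that fraction, 5.51% lay below Cttn, against 63.7% of 11006 in Lin-.

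Other genes of the pathway came from lists of the complexes and their controls. Of 26 upstream GTPases, exchange factors, kinases and adaptors tested, 20 were higher in Gr1+Mac1+ cells, 1 was higher in Lin- and 5 did not pass, with a median log2 difference of 1.38 against -0.33 over all loci. They included the Src-family kinase Fgr (5.54), the WASP-binding adaptor Pstpip1 (3.64), the blood Rac Rac2 (2.91), the exchange factors Vav1 (1.54) and Dock2 (2.08), and Cdc42 (1.03). Nck2, an adaptor of N-WASP, was the call in the other direction at -1.38. Of 9 Arp2/3 subunits tested, 7 were higher in Gr1+Mac1+ and 1 in Lin- cells, with a median of 1.24: the Arpc1b form stood at 2.94 and the Arpc1a form at -0.64. Actr3, counted there, has status FAIL in KO Gr1+Mac1+. Inhibitors and debranchers counted 4 and 2 of 7, led by Coro1a (3.87) and Gmfg (2.83), with a median of 0.88. The endosomal WASH complex counted 1 and 2 of 5 with a median of -0.04. The remaining subunits and paralogues of the members counted 2 and 3 of 7 with a median of -0.16: Cyfip2 and Brk1 rose, while Nckap1, Abi2 and Jmy, a p53 cofactor with a WASP-type end, fell, Jmy by 2.10 on the log2 scale. After rescaling, the medians of these lists were 1.75 (upstream), 1.63 (Arp2/3), 1.27 (inhibitors), 0.33 (WASH) and 0.18 (remaining subunits), so the last pair changed sign, and the WASH complex then counted 3 higher in Gr1+Mac1+ and 0 in Lin- cells.

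Between genotypes, 8 of the 10 members were high enough to pass the size rule in each of the 6 comparisons, and none did, that rule being at least 2-fold on log2(FPKM + 1), an FPKM of 5 or more in the library with more and deposited 95% intervals apart. Wasl in all comparisons, Abi3 in the Lin- and Cttn in the Gr1+Mac1+ comparisons lay under the level of 5 and could not pass. The rule took 0.175% of loci in KO against WT Lin-, 0.142% in KO against WT Gr1+Mac1+, 1.35% in Het against WT Lin-, 0.132% in Het against WT Gr1+Mac1+, 1.24% in KO against Het Lin- and 0.133% in KO against Het Gr1+Mac1+. There is 1 library per group and no test, and Het and KO are set against the same WT library. Log2 ratios between genotypes are on FPKM + 1. Intervals and counting SEs below cover counting error only.

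In KO against WT Gr1+Mac1+ cells, Cttn had the largest difference, at a log2 ratio of -0.65 on FPKM + 1 (counting SE 0.16). Its KO FPKM itself was 46.5% of WT, a change of more than 2-fold that the added 1 makes smaller. Without the floor of FPKM 5 and with a pseudocount of 0.1, Cttn was the member that passed, among 72 loci. This setting was chosen after seeing the data. Wasf2 was at -0.19 (0.04) and Wipf1 at 0.13 (0.04), and these 3 were the members with intervals apart: 1 higher, as 5.26% of loci were, and 2 lower, as 5.52% were. In the same libraries, summed erythroid markers went from an FPKM of 490 in WT to 341 in Het and 296 in KO, with 9 of 9 lower in KO than WT and none at 0. Megakaryocyte markers were at 43.7, 56.0 and 40.6 and stromal and endothelial markers at 31.2, 49.0 and 38.7. Cttn, at 2.08, 1.41 and 0.969, was in the same order as the erythroid sum; the part of those cells in it was not tested. Nckap1 was at 1.30, 0.738 and 0.913 with overlapping intervals in KO and WT. Neutrophil markers were higher in KO than WT in 10 of 11 measured (9 with intervals apart), and T and NK markers in 7 of 10 (1 apart). Monocyte markers were lower in 7 of 10 (3 apart), while B lineage markers were higher in 4 and lower in 6 of 10. The part of all these cell types in the Wasf2 and Wipf1 values was not tested.

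In KO against WT Lin- cells, Nckap1l was the member with its interval higher than in WT, at 0.15 (counting SE 0.05), as for 6.19% of loci. Abi3 was the member with its interval lower, at -0.50 (0.16), as for 7.4% of loci; 129 and 67.1 implied fragments lay behind it. In the same libraries monocyte markers were higher in KO in 9 of 9 measured (median log2 ratio 0.49, 7 with intervals apart), T and NK markers lower in 8 of 8 (-0.63, 3 apart) and megakaryocyte markers lower in 7 of 8 (-0.38, 5 apart). Stromal and endothelial markers were higher in 6 of 6 (0.26, 3 apart), progenitor in 7 of 8 (0.20, 4 apart) and neutrophil in 6 of 7 (0.37, 0 apart). Erythroid markers (4 higher, 5 lower) and B lineage markers (1 higher, 2 lower) went both ways. The part of all these cell types in the Nckap1l and Abi3 values was not tested. Was stood at 34.9 against 35.0. In Het against WT Gr1+Mac1+ cells, Was at 0.15 (0.04) and Hcls1 at 0.11 (0.03) had intervals above WT, as 8.25% of loci had; no member was below, where 8.42% of loci were. Was is X-linked and the pools differed in Xist, 27.1, 18.0 and 19.9 in WT, Het and KO Gr1+Mac1+ libraries. The part of the sex mix was not tested. Erythroid markers were lower in Het than WT Gr1+Mac1+ in 9 of 9 (9 with intervals apart). Neutrophil markers were higher in 4 (3 apart) and lower in 7 of 11 (6 apart). B lineage markers were higher in 8 of 10 (4 apart) and stromal and endothelial in 6 of 6 (4 apart). The part of these cell types in the Was and Hcls1 values was not tested. Setting KO against Het, Hcls1 (-0.26) and Abi3 (-0.64) had intervals apart in Lin- cells, where 11.1% of loci did, and Wasf2 (-0.25) and Abi1 (0.20) in Gr1+Mac1+ cells, where 18.5% did. In KO against Het Lin- cells, neutrophil markers were lower in 11 of 11 measured (median log2 ratio -6.20, 10 with intervals apart). Megakaryocyte markers were lower in 8 of 8 (6 apart) and monocyte in 8 of 10 (7 apart), while progenitor were higher in 6 of 8 (4 apart). In Gr1+Mac1+ cells neutrophil markers were higher in 10 of 11 (9 apart) and erythroid lower in 7 of 9 (4 apart). The part of these cell types in the members' values was not tested. Median log2 ratios over the members lay between -0.05 and 0.15 in the 6 comparisons.

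**Figure D4:**
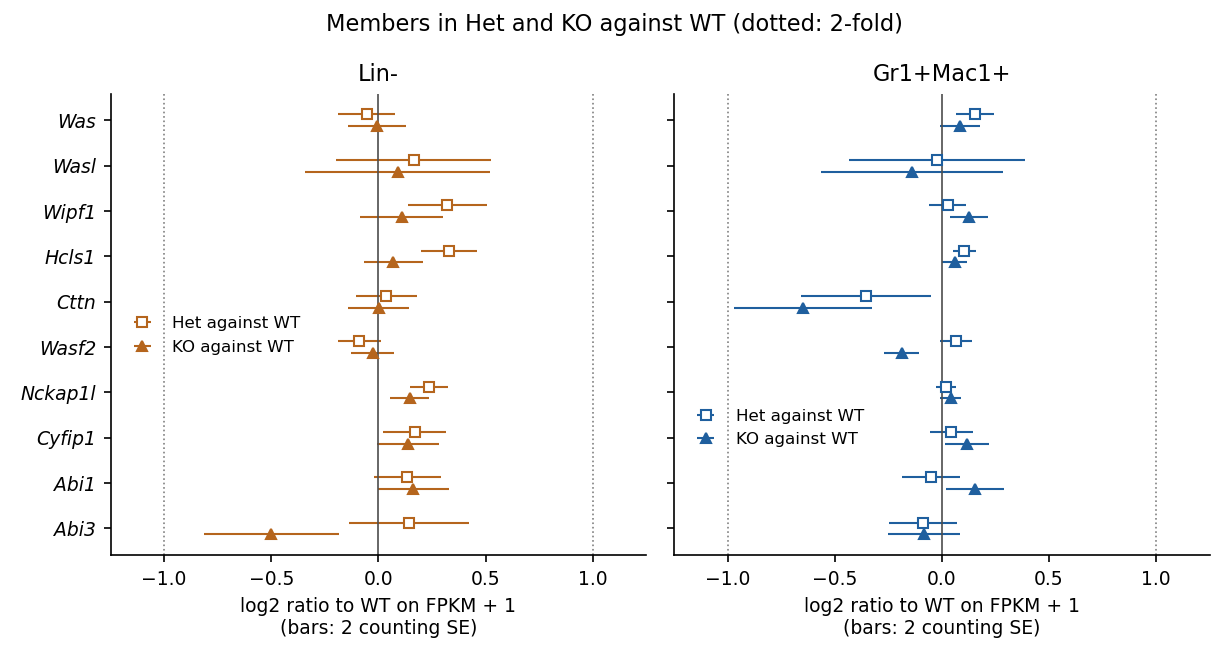
Log2 ratio on FPKM + 1 of each member between genotypes within a fraction, with bars for the counting error from the deposited intervals. No member reaches the 2-fold line of 1 on this scale. Cttn in KO against WT Gr1+Mac1+ cells lies farthest from 0 at -0.65, where its FPKM without the added 1 is 46.5% of WT.

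The Het Lin- library held more of 3 members than WT Lin-: Hcls1 at 43.2 against 34.2, a log2 ratio of 0.33 (counting SE 0.07), Wipf1 at 7.47 against 5.78 (0.32, SE 0.09) and Nckap1l at 36.1 against 30.5 (0.24, SE 0.04). These had intervals higher, as 8.56% of loci had, and no member had its interval lower, as 6.16% had. All 3 are among the 6 of 10 members at least 2-fold higher in WT Gr1+Mac1+ than in WT Lin- cells. The Het Lin- library is also the one with the high neutrophil markers. Other marker lists differed from WT Lin- too. Megakaryocyte markers were higher in 8 of 8 measured (7 with intervals apart), stromal and endothelial in 6 of 6 (4 apart). Monocyte markers were higher in 9 of 9 (8 apart) and B lineage in 4 of 4 (3 apart). T and NK markers were lower in 8 of 9 (1 apart), while erythroid markers were higher in 6 of 9 and progenitor in 4 of 8. Expressed as a share of the WT gap between the fractions, the shift was 5.36% for Hcls1, 5.85% for Wipf1 and 6.93% for Nckap1l, and 5.16% to 5.76% for the neutrophil markers, with a median of 5.57%. Abi3 stood at 4.51%, Cyfip1 at 12.5% and Was at -3.58%, with Het intervals that overlapped those of WT Lin-. Their log2 ratios were 0.14 (counting SE 0.14), 0.17 (0.07) and -0.06 (0.07). No counting error was worked out for the shares. The monocyte markers had a median of 5.57% (3.62% to 8.86%), and 9 B lineage markers a median of 2.62% (-7.83% to 7.15%). In KO Lin- the neutrophil median was 0.0116% and the monocyte median 3.15% (0.695% to 5.49%). There Hcls1 stood at 1.03%, Wipf1 at 1.82%, Nckap1l at 4.17%, Cyfip1 at 10.1%, Was at -0.352% and Abi3 at -12.9%. The part of other cells in these values was not tested. Outside the members, the upstream kinase Fgr (FPKM 0.304 to 5.89) passed the size rule in Het against WT Lin-, and it passed in the other direction in KO against Het Lin-.

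**Figure D5:**
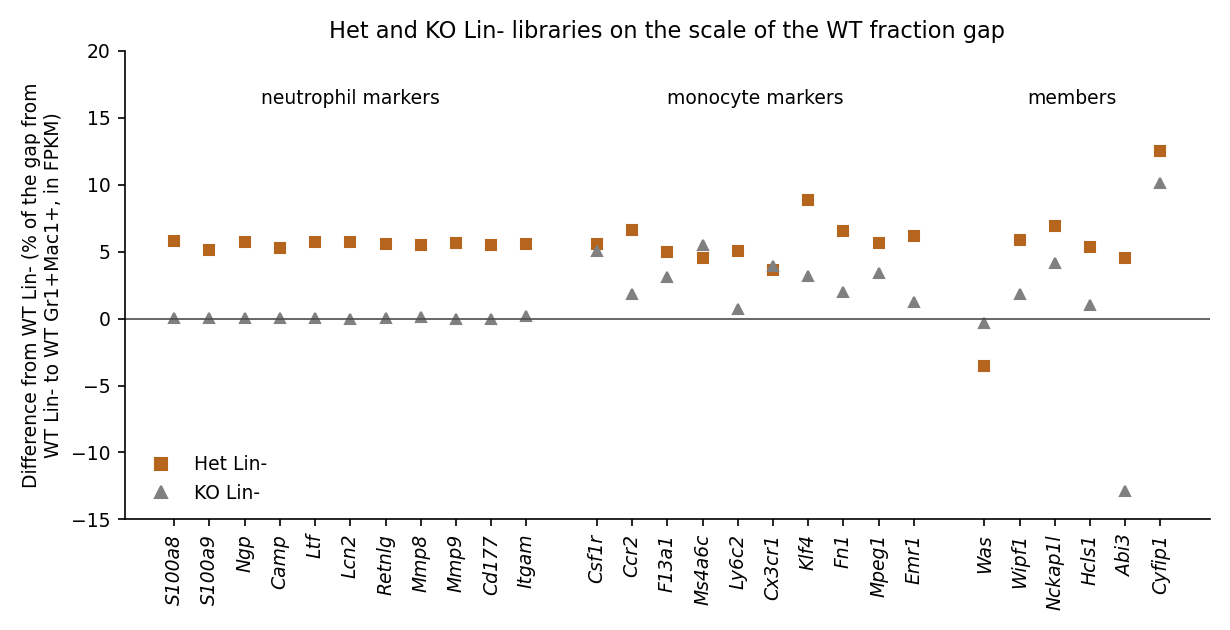
Difference from WT Lin- in the Het and KO Lin- libraries as a percent of the WT gap between fractions, for neutrophil and monocyte markers and for the members at least 2-fold higher in Gr1+Mac1+ cells. In Het the neutrophil markers lie between 5.16% and 5.76%, with Hcls1 at 5.36% beside them. Was lies below 0, though its Het interval overlaps that of WT Lin-.

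As a description of likeness, centred log2(FPKM + 1) profiles over the 6 libraries were compared with those of 7974 genes of mean FPKM at least 5. The nearest to Was were Dennd5a, Trabd and Tagap (root mean square differences of 0.0287, 0.0372 and 0.0427), and to Hcls1 Syk, Rasgrp2 and Rassf3 (0.0390, 0.0433 and 0.0532). Nckap1l lay nearest to Fam160a2, Pnrc1 and Galns (0.0383, 0.0420 and 0.0436), and Wasl to Kif14, Klhl20 and Cdca8 (0.0255, 0.0293 and 0.0294). Among the members themselves, Abi1 and Cyfip1 were closest at 0.0539, followed by Wipf1 and Hcls1 at 0.0854.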

How the data were processed

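Each of the 6 tables holds gene FPKM as deposited, with a lower and upper bound and a status per the file headers, for 23746 loci on mm10. The submitters' processing notes name TopHat2 2.0.7 and Cufflinks 2.0.2; which did what, and with which annotation, is not given in the sources used here. Locus starts were read as 0-based, since 12238 matched a GENCODE transcript start after adding 1 and 1154 as given. Fragment numbers were implied from interval widths; of loci with fewer than 50, 63.0% to 64.0% came out whole within 0.05. The intervals give counting error only.

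The members and lists were chosen with earlier results of these data known. For the fractions limma 3.58.1 was used under R 4.3.3 (trend, pool as block, log2(FPKM + 1), mean FPKM of at least 1, Benjamini-Hochberg adjusted p under 0.05). It was also run on simulated data, whose outcome is not given here. Those data held no pool effect, no shift in scaling and no low genes, so they cannot speak to these. The pairing comes from the labels' protocols, which take both fractions from the same mice; deviations from the fraction means correlated across loci by 0.10 (WT), -0.07 (Het) and -0.03 (KO). Genotypes were compared by the size rule without a test, on loci of mean FPKM at least 1 in the pair. The 10 members matched by symbol, 11 of 12 neutrophil markers did, and all symbols of the other lists did; 1 upstream gene is in the counts, but its values are not reported here. The summed FPKM of the remaining marker lists was, in Lin- and in Gr1+Mac1+ libraries, 64.6 to 171 and 1894 to 2051 (monocyte), 250 to 298 and 101 to 111 (progenitor), 11.3 to 26.1 and 277 to 323 (B lineage), and 40.7 to 52.1 and 181 to 205 (T and NK).

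Named genes are the members, their paralogue partners, list members of the highest mean level or with a log2 difference of at least 1 past the threshold or past the size rule, and the 3 nearest profiles of Was, Nckap1l, Hcls1 and Wasl; only some that fit are printed. The remaining work ran in Python 3.11.15 with numpy 2.4.6, pandas 2.3.3, statsmodels 0.14.6 and matplotlib 3.10.9. Alternatives were pseudocounts of 0.1 and 5, other level filters, rescaling, no block, each pool left out, folds of 1.5 and 3, and no interval criterion.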

Additional observations from a re-analysis of the deposited data

How the results depend on the processing

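Over all alternatives, 297 values kept direction and call, 38 moved, 5 lost and 1 gained a call and 1 reversed. Members higher in Gr1+Mac1+ cells numbered 8 throughout. Members higher in Lin- cells numbered 1, not 2, without the filter on low values (Wasl limma adjusted p = 0.0540), with mean FPKM of at least 5, which leaves Wasl out, and on rescaling (0.819); with each pool left out they ranged from 1 to 2, Wasl losing its call without the Het (limma adjusted p = 0.0889) or KO pool (0.116). Without the replicate block, that is the pairing, they numbered 8 and 2. On rescaling Whamm reversed to 0.18 from -0.16, neither past the threshold, and Abi2 lost its call at -0.26. The paralogue pairs kept their direction. No member passed the size rule with the other pseudocounts, folds, filters and scaling or without the interval criterion, nor without its floor of FPKM 5; with no floor and a pseudocount of 0.1, both chosen after seeing the data, 1 did (Cttn, KO against WT Gr1+Mac1+). Meanwhile the loci passing it moved, in the order KO against WT Lin- and Gr1+Mac1+, Het against WT Lin- and Gr1+Mac1+, KO against Het Lin- and Gr1+Mac1+, from 19, 16, 149, 15, 137 and 15 to 85, 116, 252, 73, 242 and 113 with 1.5-fold. Without the interval criterion 105, 95, 86, 208 and 89 passed in those comparisons other than Het against WT Lin-. With 3-fold the first 5 became 7, 5, 91, 5 and 77, and with a pseudocount of 5 they became 10, 6, 91, 7 and 87; with a pseudocount of 0.1 KO Gr1+Mac1+ reached 28 against WT and 25 against Het. With no floor the 6 counts were 28, 26, 223, 22, 209 and 26, and with no floor and a pseudocount of 0.1 they were 60, 72, 294, 50, 276 and 68. Fewer than 100 implied fragments behind Wasl, and behind Cttn in Gr1+Mac1+ cells, limit their precision.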
